A study of Rattus norvegicus with 9 samples.

Results

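The 67 genes described here encode the classical axon guidance ligands and their receptors, namely semaphorins, plexins, neuropilins, Slits, Robos, ephrins, Eph receptors, netrins, Dcc and the Unc5 family. They were chosen by symbol alone, as the protein-coding rows whose names belong to these families, from the 30507 rows of a spinal cord RNA-seq count table. Each group held 3 young adult female wild-type Sprague-Dawley rats, and whole spinal cord tissue from segments T9-T11 was taken 35 days after surgery. Sham rats had a laminectomy without contusion, although their sample labels give no treatment and call the rats normal. SCI rats received a T10 contusion and an electrode plug on the neck without an electrode. SCI + SCS rats received the same contusion, an epidural electrode and daily high-frequency spinal cord stimulation. The electrode and the current came together in the SCI + SCS group, so their effects cannot be told apart in these libraries. The comparisons ask how the guidance genes differed at the injured segment at this late time, and whether they differed between stimulated and unstimulated injured rats.

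Guidance ligands steer growing axons, and several of them repel or arrest them. Secreted class 3 semaphorins act through neuropilins paired with plexins, while the membrane-bound classes bind plexins directly. Slits repel through Robo receptors, ephrins and Ephs signal between touching cells, and netrins attract through Dcc or repel when Unc5 receptors take part. In the adult cord the same families are also used by glia, vessels, fibroblasts and immune cells, and after injury they are known as part of the environment that cut axons meet.

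The libraries held between 62844376 and 88358570 counts, so that 3 counts correspond to a level between 0.034 and 0.0477 CPM (counts scaled by library size). Neuronal, oligodendrocyte and astrocyte markers were detected in every library, but the balance of cell type markers differed between groups. The summed level of 10 neuronal markers was 4500 to 10000 CPM in Sham, 589 to 2070 CPM in SCI and 1920 to 3350 CPM in SCI + SCS. Oligodendrocyte markers summed to 58200 to 82400 CPM in Sham, 17200 to 32700 CPM in SCI and 30300 to 35900 CPM in SCI + SCS. Microglia and macrophage markers went the other way, with 259 to 592 CPM in Sham, 1950 to 2460 CPM in SCI and 1490 to 1570 CPM in SCI + SCS. Pericyte and fibroblast markers summed to 402 to 1870 CPM in Sham, 3310 to 4960 CPM in SCI and 2050 to 3470 CPM in SCI + SCS. Skeletal muscle markers stood at 3230 CPM in SCI rat 1 and 945 CPM in SCI rat 3, against 6.16 to 42.7 CPM in the other 7 libraries, so these 2 libraries stood apart. Sham rat 2 stood apart in sensory ganglion genes, with Avil at 97.7 CPM and Scn10a at 55.3 CPM, against at most 9.61 and 3.36 CPM in any other library. T lymphocyte markers summed to 1.53 to 2.99 CPM in Sham, 9.54 to 14.3 CPM in SCI and 1.94 to 4.85 CPM in SCI + SCS, and Schwann cell markers to 4480 to 7080, 8790 to 12800 and 6830 to 14500 CPM. The part of tissue makeup in the results on guidance genes was not tested, and in bulk tissue fewer cells of a type and less RNA per cell cannot be told apart.

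**Figure D1:**
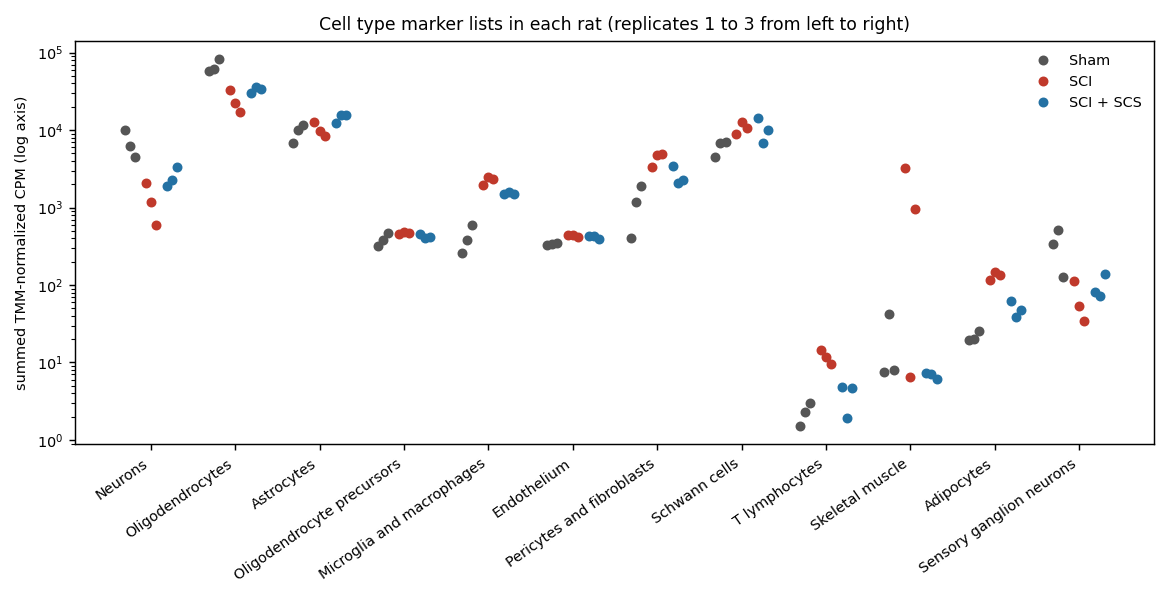
Summed TMM-normalized CPM of each cell type marker list (y axis, log scale) in each of the 9 rats, coloured by group, with replicates 1 to 3 from left to right. Neuronal markers lay between 4500 and 10000 CPM in Sham and between 589 and 2070 CPM in SCI, and skeletal muscle markers were high in SCI rats 1 and 3 (3230 and 945 CPM).

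After contusion, SCI rats against Sham rats, guidance genes changed in both directions, and lower levels were the more frequent. Of the membrane-bound semaphorins 8 of 13 were lower in SCI, as were 6 of 14 Eph receptors, Slit1 and 3 of 4 Unc5 receptors, while the secreted semaphorins Sema3a and Sema3c, the receptors Plxnb2, Plxnc1 and Nrp2 and the ephrins Efnb1 and Efna4 were higher. A gene was called higher or lower when its adjusted p was under 0.05 in the quasi-likelihood test of edgeR, adjusted by Benjamini-Hochberg over all genes tested, and a DEG when its log2 fold change (log2FC) was also over 1 in size. Of the 67 members, 13 were higher (19.4% of them, against 24.3% of all genes tested) and 24 were lower (35.8%, against 25%). As DEGs, 6 members were higher (background 13.4%) and 13 were lower (background 13.6%). DESeq2 called 16 members higher (background 25.2%) and 28 lower (background 25.1%). The median log2FC was -0.31 over the members and 0.02 over all 17822 genes tested, and the members ranged from -3.27 to 2.02. The values of the 3 SCI rats lay wholly above those of the 3 Sham rats for 17 members (background 32.5%) and wholly below for 28 (background 31.1%). All called members were among these, so the separation stated below for single called genes adds no support to their calls. With SCI rats 1 and 3 left out together, a choice made after the data were seen, 2 members were higher (background 2.6%) and 2 lower (background 1.95%), and this fit assumes that the 1 remaining SCI library varies like the other group. Without Sham rat 2, 10 members were higher (background 15.8%) and 19 were lower (background 17.9%).

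**Figure D2:**
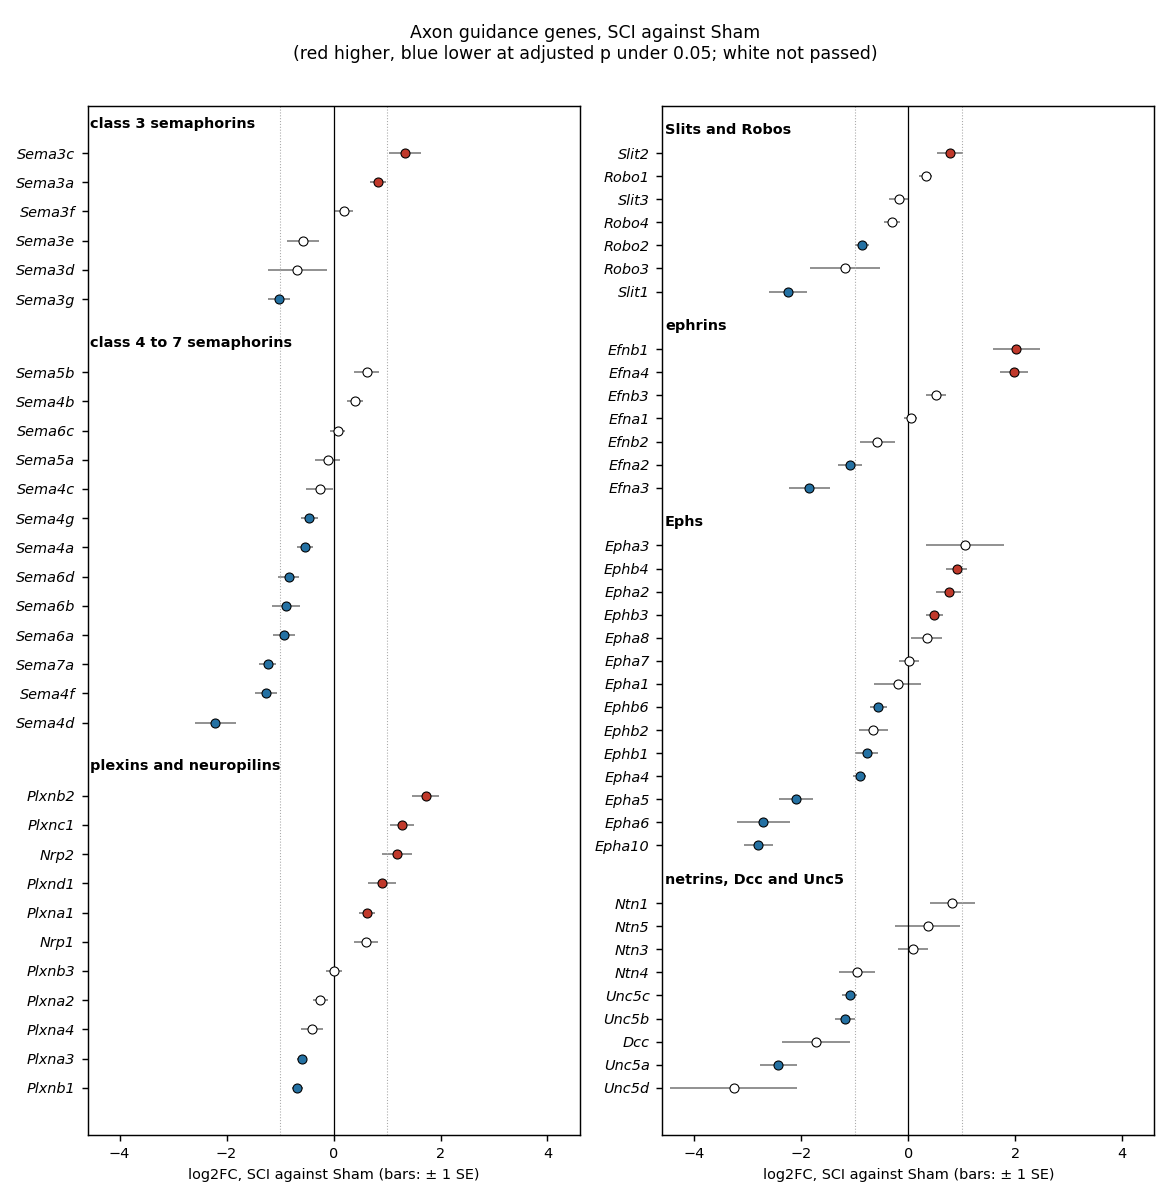
Log2FC of each of the 67 guidance genes in SCI against Sham (x axis, bars ± 1 SE, 3 rats per group), grouped by family. Red points are the 13 genes that were higher, blue points the 24 that were lower, and white points the 30 that did not pass the test.

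The promoters of 4 members are shown as examples from both ends of this ranking. They belong to the 2 higher and the 2 lower members with the largest log2FC among those called with a mean of at least 5 CPM, a limit that left out Epha6 and Efna4. Each run is the 250 bases before the annotated start, 5′ to 3′ on the strand of the gene, from RefSeq on build GRCr8. Capitals mark a GC box (GGGCGG, or CCGCCC on the other strand) or a CCAAT box (CCAAT, or ATTGG on the other strand). The windows are chrX:68297279-68297528 on the + strand for Efnb1, chr7:122137949-122138198 on the - strand for Plxnb2, chr5:142424046-142424295 on the + strand for Epha10 and chr17:9675664-9675913 on the - strand for Unc5a.
Efnb1: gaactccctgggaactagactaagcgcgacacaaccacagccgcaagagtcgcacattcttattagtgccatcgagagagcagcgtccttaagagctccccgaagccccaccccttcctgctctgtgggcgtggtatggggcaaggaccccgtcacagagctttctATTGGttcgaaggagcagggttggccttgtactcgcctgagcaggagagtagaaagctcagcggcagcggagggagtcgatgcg
Plxnb2: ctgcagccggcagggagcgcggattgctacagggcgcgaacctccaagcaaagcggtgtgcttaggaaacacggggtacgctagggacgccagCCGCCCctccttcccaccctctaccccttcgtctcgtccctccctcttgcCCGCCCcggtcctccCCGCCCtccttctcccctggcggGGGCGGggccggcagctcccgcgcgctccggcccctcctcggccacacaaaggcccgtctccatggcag
Epha10: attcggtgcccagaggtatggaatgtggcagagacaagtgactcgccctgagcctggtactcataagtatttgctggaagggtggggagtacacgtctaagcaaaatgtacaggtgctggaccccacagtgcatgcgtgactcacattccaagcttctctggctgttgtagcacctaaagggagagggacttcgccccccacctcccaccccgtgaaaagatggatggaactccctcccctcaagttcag
Unc5a: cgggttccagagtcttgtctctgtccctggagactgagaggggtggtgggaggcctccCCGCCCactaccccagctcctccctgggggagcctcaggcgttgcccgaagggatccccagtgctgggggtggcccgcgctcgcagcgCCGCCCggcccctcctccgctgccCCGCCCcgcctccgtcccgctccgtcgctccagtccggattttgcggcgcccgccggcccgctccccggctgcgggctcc

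The Plxnb2 window held 4 GC boxes and the Unc5a window 3, while the Efnb1 window held 1 CCAAT box and the Epha10 window held none of these motifs. No match shared a base with a match of another motif, and no TATA box (TATAAA, either strand) was found in the 4 windows. Of the 67 members, 53 had an entry in the promoter table and 52 had a single promoter. A GC box was present in 57.7% of those 52 windows, against 30.5% of all 33469 promoters of the same length. The share was 60% for the 10 matched members that were higher in SCI and 63.2% for the 19 that were lower. A CCAAT box was found in 32.7% of the 52 windows against 34% of all promoters, and a TATA box in 0% against 12.9%. The members are protein-coding genes with a single promoter. The set of all promoters was not limited by gene type, expression or promoters per gene. These shares therefore compare unlike sets and do not show a trait of guidance genes.

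Among the class 3 semaphorins, the secreted ligands of neuropilin and plexin complexes, 2 of 6 members were higher and 1 was lower. These shares were 33.3% and 16.7%, against 24.3% and 25% of all genes tested. Sema3a, the founding axon repellent of the class, stood at 11.4, 8.43 and 9.67 CPM in the Sham rats and at 16.9, 17.4 and 19.5 CPM in the SCI rats. Every SCI rat lay above every Sham rat, and the gene was 1.80-fold higher (log2FC 0.84, SE 0.15, adjusted p = 0.00529). Sema3c was at 25.2, 35.7 and 50.6 CPM in Sham and at 65.3, 105 and 113 CPM in SCI, which was 2.51-fold higher (log2FC 1.33, SE 0.30, adjusted p = 0.0121). Among the Sham rats, rat 3 was highest and rat 1 lowest both for this gene and for the pericyte and fibroblast markers, which summed to 402, 1170 and 1870 CPM. The astrocyte, oligodendrocyte, microglia and macrophage, and Schwann cell markers had the same order, so the match was not particular to a cell type. Sema3g, known from vessel endothelium, was at 15.8, 16.7 and 11.5 CPM in Sham and fell to 6.24, 8.36 and 7.37 CPM in SCI (log2FC -1.02, SE 0.20, adjusted p = 0.00714). Of 5 endothelial markers only Cdh5 passed the edgeR test, and it was higher (24.2, 44.9 and 73.5 CPM in Sham, 102, 119 and 128 CPM in SCI), while Pecam1, Cldn5, Vwf and Tek had log2FC from -0.21 to 0.25. Sema3d, Sema3e and Sema3f, a ligand of Nrp2, did not pass the test, with log2FC of -0.68, -0.57 and 0.19 and adjusted p from 0.152 to 0.375.

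The membrane-bound semaphorins of classes 4 to 7 were lower for 8 of 13 members and higher for 0, with a median log2FC of -0.54. As shares, 61.5% were lower and 0% higher, against 25% and 24.3% of all genes tested. Sema4d, a ligand of Plxnb1 that oligodendrocytes carry, lies on chromosome 17 between 13430379 and 13537138 (mRatBN7.2). It was at 284, 449 and 748 CPM in the Sham rats and at 131, 115 and 76.2 CPM in the SCI rats. The groups did not overlap, and the gene was 4.63-fold lower in SCI (log2FC -2.21, SE 0.38, adjusted p = 0.00473). The spread among the Sham rats was wide for Sema4d, and the Sham rat with the most Sema4d also had the most oligodendrocyte markers (82400 CPM). The same rat had the most astrocyte (11700 CPM), microglia and macrophage (592 CPM) and pericyte and fibroblast markers (1870 CPM) of its group. The match was therefore not particular to oligodendrocytes. Sema7a, a lipid-anchored semaphorin that binds Plxnc1 and integrins, was nearly level among the Sham rats at 156, 158 and 160 CPM. In the SCI rats it was at 66.6, 82.9 and 55.2 CPM, which was 2.35-fold lower (log2FC -1.23, SE 0.16, adjusted p = 0.00218). Sema4f fell from 26.3, 22.1 and 15.6 CPM to 8.15, 9.90 and 8.99 CPM (log2FC -1.26, SE 0.21, adjusted p = 0.00454). Sema6a, a transmembrane ligand of Plxna2 and Plxna4, fell from 53.0, 52.1 and 56.1 CPM to 33.0, 32.7 and 19.8 CPM (log2FC -0.93, SE 0.20, adjusted p = 0.0105). Sema6b, Sema6d, Sema4a and Sema4g fell by 0.45 to 0.89 on the log2 scale, and these 4 and Sema6a were not large enough for a DEG. Sema4g kept its call in 1 of the 6 fits without a library, and Sema4a and Sema6b kept theirs in 2. Sema5a, a ligand of Plxnb3, had overlapping values of 79.0 to 110 CPM in Sham and 68.3 to 121 CPM in SCI (adjusted p = 0.714). Sema4b, Sema4c, Sema5b and Sema6c did not pass either, and for Sema4b and Sema5b the SCI values nevertheless lay wholly above the Sham values (adjusted p = 0.0636 and 0.0653).

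Of the semaphorin receptors, 5 of 11 plexins and neuropilins were higher and 2 were lower, with a median log2FC of 0.61. The shares were 45.5% and 18.2%, against 24.3% and 25% of all genes tested. Plxnb2, a receptor of class 4 semaphorins (chromosome 7, 120232331 to 120258330, mRatBN7.2), was at 52.7, 72.3 and 105 CPM in Sham and at 226, 271 and 267 CPM in SCI. Each SCI rat held more than each Sham rat, and the gene was 3.29-fold higher (log2FC 1.72, SE 0.25, adjusted p = 0.00276). Plxnc1, the plexin that binds Sema7a, was at 13.6, 17.1 and 9.63 CPM in Sham and at 29.6, 38.8 and 30.5 CPM in SCI (2.43-fold higher, log2FC 1.28, SE 0.23, adjusted p = 0.00559). Nrp2, the co-receptor of Sema3f and Sema3c, rose from 13.4, 26.8 and 29.7 CPM to 49.2, 56.5 and 54.2 CPM (log2FC 1.18, SE 0.28, adjusted p = 0.0142). Plxnd1, a plexin of vessels that binds Sema3e, rose from 16.4, 30.3 and 30.2 CPM to 40.2, 57.8 and 47.2 CPM (log2FC 0.90, SE 0.26, adjusted p = 0.0277). Microglia and macrophage markers were also higher in SCI (4 of the 7 in the table passed), and so were 6 of 7 pericyte and fibroblast markers. The pericyte gene Rgs5 was lower (log2FC -0.64, SE 0.17, adjusted p = 0.0221). T lymphocyte (4 of 5), Schwann cell (3 of 5), skeletal muscle (4 of 6) and adipocyte markers (3 of 4 tested) were called higher too. Higher markers were therefore not particular to microglia, macrophages, pericytes and fibroblasts.

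Plxna1 was counted on more than 1 row of the table, and the rows did not move together. The row with the most counts was higher in SCI (34.5, 35.9 and 36.5 CPM in Sham against 45.4, 66.3 and 54.5 CPM in SCI, log2FC 0.62, SE 0.15, adjusted p = 0.0141). The second row held 3156, 3192 and 3148 counts in Sham and 2789, 1761 and 1890 counts in SCI, with a log2FC of -0.49 (SE 0.19, adjusted p = 0.0665). With the rows summed, the log2FC of Plxna1 was 0.13 (SE 0.11, adjusted p = 0.355), so the rise of this receptor depends on the row. Nrp1, the co-receptor of Sema3a, overlapped between groups (13.6 to 18.0 CPM in Sham, 17.8 to 32.0 CPM in SCI, log2FC 0.61, SE 0.23, adjusted p = 0.0649). Plxnb1, the receptor of Sema4d, fell from 75.8, 76.2 and 84.4 CPM to 49.0, 53.6 and 46.7 CPM (log2FC -0.68, SE 0.10, adjusted p = 0.00287). Plxna3 fell as well, from between 30.6 and 33.8 CPM to between 20 and 23.0 CPM (log2FC -0.59, SE 0.10, adjusted p = 0.00448). Plxna2, Plxna4 and Plxnb3 did not pass, with log2FC of -0.25, -0.40 and 0.00 and adjusted p of 0.182, 0.131 and 1.

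Of the 7 Slits and Robos, 1 was higher and 2 were lower (14.3% and 28.6%, against 24.3% and 25% of all genes tested). Slit1 (chromosome 1, 240409561 to 240558127, mRatBN7.2), a Slit made by neurons, was at 20.7, 22.1 and 9.80 CPM in Sham and at 3.09, 4.57 and 3.55 CPM in SCI. It was 4.77-fold lower with no overlap (log2FC -2.25, SE 0.35, adjusted p = 0.00337). Slit2 was tight in Sham at 30.1, 28.4 and 27.4 CPM and uneven in SCI at 31.4, 61.3 and 56.8 CPM. Its call as higher (log2FC 0.78, SE 0.25, adjusted p = 0.0368) was kept in 1 of the 6 fits without a library (adjusted p up to 0.114), and SCI rat 1 lay close to the Sham rats. Robo2, a neuronal Slit receptor, fell from 48.4, 58.2 and 47.3 CPM to 32.0, 27.7 and 26.2 CPM (log2FC -0.86, SE 0.13, adjusted p = 0.00312). Robo1 was at 25.5 to 33.0 CPM in Sham and 33.7 to 42.5 CPM in SCI, and did not pass (log2FC 0.32, SE 0.13, adjusted p = 0.0883). Slit3, Robo3 and the endothelial receptor Robo4 did not pass either, with adjusted p of 0.489, 0.169 and 0.122.

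Of the 7 ephrins, 2 were higher and 2 were lower, and all 4 were DEGs. Each share was 28.6%, near the 24.3% higher and 25% lower of all genes tested. For DEGs the background was 13.4% higher and 13.6% lower. Efnb1, a transmembrane ephrin (chromosome X, 64257351 to 64270157, mRatBN7.2), was at 7.64, 17.8 and 25.8 CPM in Sham and at 50.6, 69.6 and 90.3 CPM in SCI. The gene was 4.06-fold higher (log2FC 2.02, SE 0.44, adjusted p = 0.0104), and both groups were spread widely around their means. Efna4, a lipid-anchored ephrin, was even within groups and rose from 0.595, 0.829 and 0.955 CPM to 3.06, 3.32 and 3.17 CPM (3.95-fold higher, log2FC 1.98, SE 0.26, adjusted p = 0.00216). In the other direction, Efna3 fell from 27.5, 17.4 and 12 CPM to 6.76, 5.92 and 3.31 CPM (log2FC -1.85, SE 0.39, adjusted p = 0.00924). Sham rat 1 was highest and Sham rat 3 lowest both for Efna3 and for the summed neuronal markers (10000 and 4500 CPM). Efna2 fell from 4.46, 4.14 and 4.96 CPM to 1.66, 2.23 and 2.55 CPM (log2FC -1.09, SE 0.23, adjusted p = 0.00855). Efna1, Efnb2 and Efnb3, a midline ephrin of myelinating cells, did not pass, with log2FC of 0.04, -0.58 and 0.52 and adjusted p of 0.826, 0.182 and 0.0635.

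Among the 14 Eph receptors, which bind the ephrins of neighbouring cells, 3 were higher and 6 were lower. That was 21.4% and 42.9%, against 24.3% and 25% of all genes tested. Epha10, a member of the family with little kinase activity (chromosome 5, 137140735 to 137174157, mRatBN7.2), was at 11.6, 9.73 and 6.94 CPM in Sham and at 1.08, 1.42 and 1.58 CPM in SCI. At 7.03-fold lower it had the largest called decrease among the members (log2FC -2.81, SE 0.27, adjusted p = 0.00135). Epha5, a receptor of ephrin-As on neurons, fell from 7.17, 8.47 and 5.20 CPM to 1.60, 2.19 and 1.14 CPM (log2FC -2.10, SE 0.32, adjusted p = 0.00321). Epha6 fell at a lower level, from 1.36, 2.44 and 0.943 CPM to 0.330, 0.227 and 0.174 CPM (log2FC -2.71, SE 0.49, adjusted p = 0.00535). Epha4, which binds ephrins of both classes and guides corticospinal and motor axons in development, was even within groups. Its levels were 25.5, 25.8 and 22.2 CPM in Sham and 13.0, 14.4 and 12.3 CPM in SCI (1.87-fold lower, log2FC -0.91, SE 0.12, adjusted p = 0.00232). Ephb1 and Ephb6 fell by 0.78 and 0.56 on the log2 scale (adjusted p = 0.0222 and 0.0282). Ephb1 kept its call in 3 of the 6 fits without a library, and Ephb6 in 2. Ephb4, a receptor of veins, rose from 8.79, 11.7 and 13.7 CPM to 18.4, 21.0 and 25.1 CPM (log2FC 0.90, SE 0.20, adjusted p = 0.0104). Epha2 rose from 4.43, 6.14 and 8.10 CPM to 9.23, 10.2 and 12.3 CPM (log2FC 0.75, SE 0.24, adjusted p = 0.0408), and Ephb3 was higher by a log2FC of 0.48 (SE 0.16, adjusted p = 0.0470). Ephb3 lost its call in all 6 fits without 1 library (adjusted p 0.0594 to 0.152), and Epha2 kept it in 1 of them. Epha1, Epha3, Epha7, Epha8 and Ephb2 did not pass the test (adjusted p from 0.0827 to 0.956).

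In edgeR 3 of the 4 Unc5 receptors, through which netrins repel, were lower as DEGs, and none of Ntn1, Ntn3, Ntn4, Ntn5, Dcc and Unc5d passed. Over this family of 9, 33.3% were lower, against 25% of all genes tested, and 0% higher, against 24.3%. DESeq2 called 6 of these 9 members lower (background 25.1%), 5 of them as DEGs, adding Ntn4 (adjusted p = 0.0146), Dcc (0.0236) and Unc5d (0.038). Unc5a (chromosome 17, 9614838 to 9670526, mRatBN7.2) was at 25, 17.6 and 11.3 CPM in Sham and at 4.39, 3.22 and 2.52 CPM in SCI (5.39-fold lower, log2FC -2.43, SE 0.35, adjusted p = 0.00292). Unc5b, also a receptor of vessels, fell from 92.7, 85.9 and 116 CPM to 51.8, 45.4 and 33.5 CPM (log2FC -1.19, SE 0.19, adjusted p = 0.00397). Unc5c was level among the Sham rats at 21.3, 21.3 and 21.0 CPM and fell to 11.7, 8.90 and 9.44 CPM (log2FC -1.10, SE 0.14, adjusted p = 0.00205). For all 3 receptors the groups were clear of each other, as for every member called in SCI against Sham. Unc5d was near the limit of detection, with 43, 53 and 24 counts in Sham and 12, 0 and 0 counts in SCI, and did not pass (adjusted p = 0.0589). A count of 0 allows up to 0.0443 CPM in SCI rat 2 and 0.0452 CPM in SCI rat 3. Ntn1, the prototype netrin, overlapped between groups at 18.4, 31.7 and 48.0 CPM in Sham and 32.7, 61.7 and 81.1 CPM in SCI (log2FC 0.82, SE 0.42, adjusted p = 0.149). Ntn4, a basement membrane netrin, was at 7.26 to 9.04 CPM in Sham and 2.38 to 5.96 CPM in SCI (log2FC -0.96, SE 0.33, adjusted p = 0.0523). Dcc, the attractive netrin receptor, was scarce throughout, at 1.24, 1.54 and 0.426 CPM in Sham and 0.431, 0.397 and 0.145 CPM in SCI (adjusted p = 0.0580). Ntn3 and Ntn5 did not pass (adjusted p = 0.826 and 0.649).

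**Figure D3:**
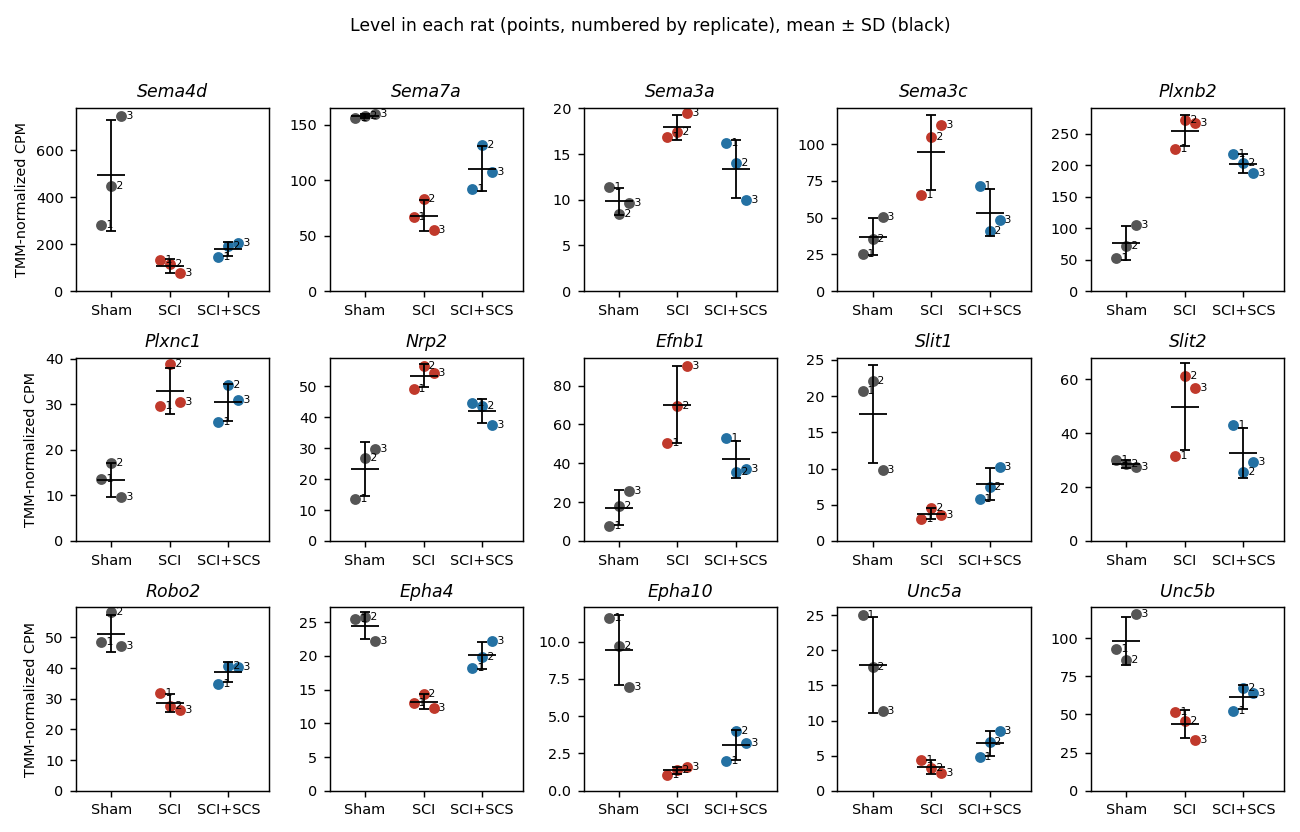
TMM-normalized CPM (y axes, linear and starting at 0) of 15 guidance genes in each of the 9 rats, numbered by replicate, with the group mean ± SD in black. Sema7a lay at 156 to 160 CPM in Sham, 55.2 to 82.9 CPM in SCI and 91.9 to 132 CPM in SCI + SCS, while Plxnb2 was lowest in Sham at 52.7 to 105 CPM and stood at 226 to 271 CPM in SCI.

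Counted by role, 5 of the 33 ligands were higher (15.2%) and 12 lower (36.4%), and 8 of the 34 receptors were higher (23.5%) and 12 lower (35.3%). Of all genes tested, 24.3% were higher and 25% lower, so the share of receptors that were higher was near the background. When each library was left out in turn, between 9 and 12 members were higher and between 19 and 25 were lower. The background also moved in such fits, to 15.8% higher and 17.9% lower without Sham rat 2. Of the 13 members called higher 8 kept the call in all 6 such fits, and of the 24 called lower 19 did. Among the higher members Plxna1 kept it in 5 fits, Plxnd1 in 4, Epha2 and Slit2 in 1 and Ephb3 in 0. Among the lower ones Ephb1 kept it in 3 fits, Sema4a, Sema6b and Ephb6 in 2 and Sema4g in 1.

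Levels of different genes can be set side by side only per length, for which the deposited FPKM (counts scaled by gene length and library size) were used. The order of the members changed between groups on this scale. In the Sham group Sema4d led at 64.8, 107 and 174 FPKM (115 ± 55.3, mean ± SD), followed by Sema7a at 48.4 ± 1.40 FPKM. Sema6d came next at 17.9 ± 2.56 FPKM, then Unc5b at 13.2 ± 2.02 FPKM and Plxnb3, a receptor of Sema5a, at 12.4 ± 1.18 FPKM. The last pair overlapped among rats, while each of the higher ranks was clear of the next. In the SCI group Plxnb2 led at 25.6, 35.8 and 35.1 FPKM (32.2 ± 5.72). Sema4d at 24.2 ± 5.23, Sema7a at 20.8 ± 5, Efnb1 at 17.5 ± 6.03 and Sema3c at 16.7 ± 5.85 FPKM followed, and each of these overlapped with its neighbour in the order. In the SCI + SCS group Sema4d (42.7 ± 7.58 FPKM) and Sema7a (34.7 ± 6.25 FPKM) overlapped, and Plxnb2 lay just below them at 26.2 ± 1.88 FPKM. A mean above 1 FPKM was reached by 57 members in Sham, 49 in SCI and 52 in SCI + SCS. Epha6, Dcc and Unc5d were among the least abundant members in all 3 groups, with means of at most 0.248 FPKM.

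A separate list of 59 guidance partners and effectors, 57 of them in the table, covered co-receptors, adhesion molecules and the cytoskeletal proteins that act below the receptors. In SCI against Sham 11 of the 57 were higher (19.3%, against 24.3% of all genes tested) and 27 were lower (47.4%, against 25%), with a median log2FC of -0.35. The largest decreases were those of Srgap3, which acts below Robo receptors (log2FC -2.60, SE 0.30), the axonal adhesion molecule Cntn2 (-2.48, SE 0.23) and the collapsin response mediator Dpysl5 (-2.11, SE 0.30). The largest increases were those of Draxin, a secreted ligand of Dcc (log2FC 2.14, SE 0.19), the kinase Fes (1.92, SE 0.22) and the surface receptor Boc (1.58, SE 0.44). All 6 had adjusted p of at most 0.0247. All 10 neuronal markers were lower in the same comparison, with a median log2FC of -2.30, as were 6 of the 7 oligodendrocyte markers, with a median of -1.26.

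When stimulated rats were set against unstimulated injured rats (SCI + SCS against SCI), no guidance gene passed the adjusted test, and the log2FC of the members ran from -0.81 to 1.89. Of 66 members tested 0 were higher and 0 were lower in edgeR, where the background was 0.00566% of genes higher and 0% lower. Unc5d failed the filter on low counts and was not tested here. At an unadjusted p under 0.05, 20 members were higher (background 13.3%) and 6 were lower (background 10.9%), and in DESeq2 at an adjusted p under 0.05 the counts were 13 (background 8.83%) and 4 (background 6.9%). As DEGs in DESeq2, 3 were higher (background 2.53%) and 0 were lower (background 2.14%). With SCI rats 1 and 3 left out together, edgeR called 0 higher (background 0.0163%) and 0 lower. The median log2FC was 0.07 over the members and -0.01 over all 17663 genes tested. The values of the groups were separate for 26 members, 20 of them higher in SCI + SCS (background 15.6%) and 6 lower (background 13.9%).

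**Figure D4:**
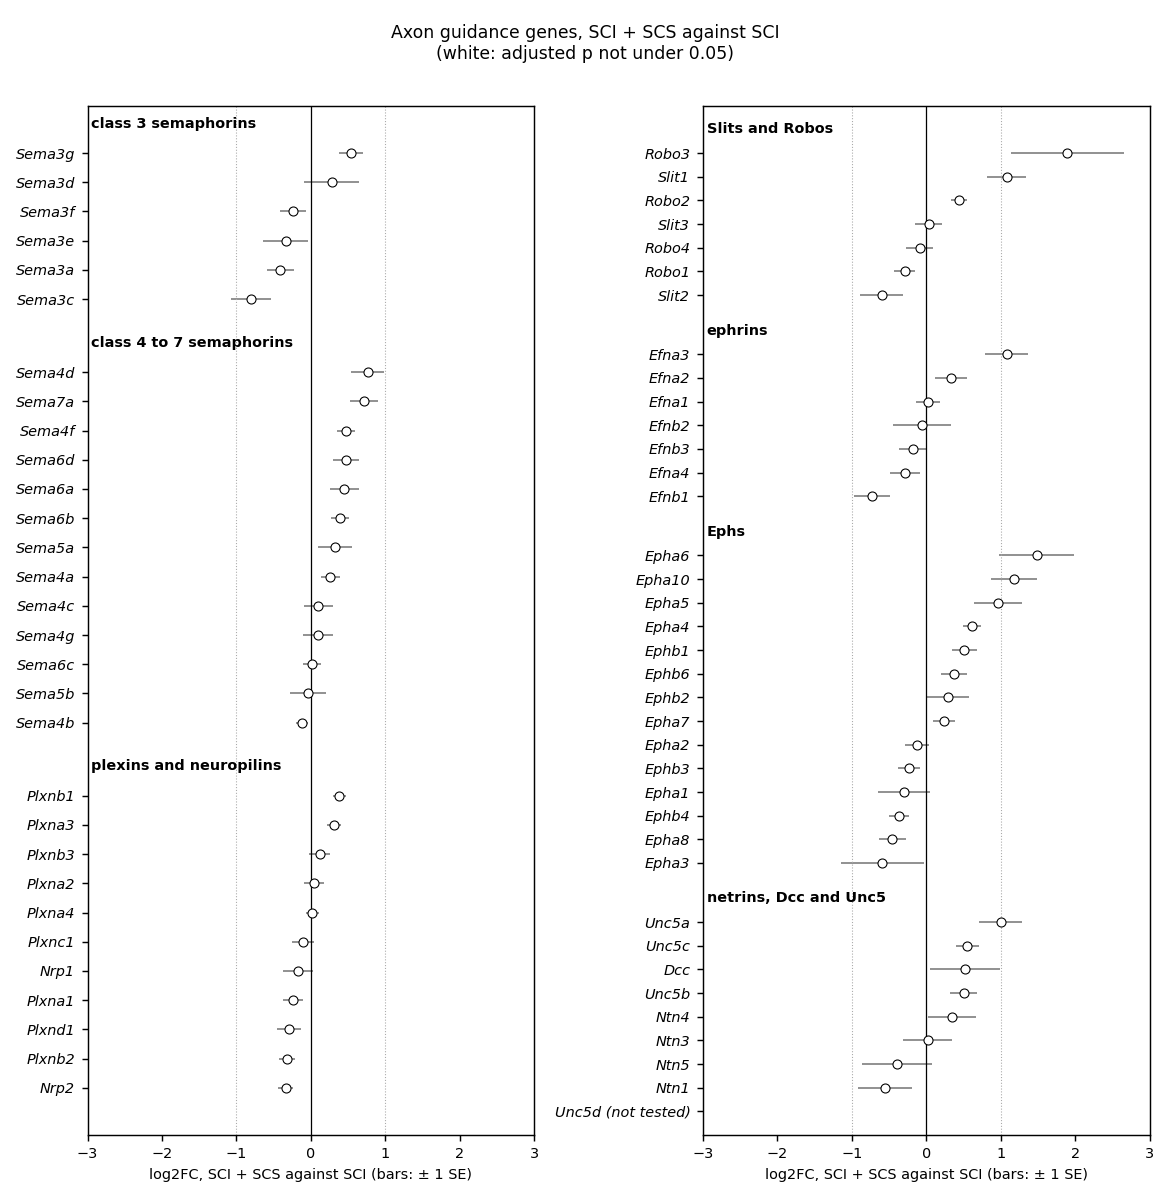
Log2FC of each guidance gene in SCI + SCS against SCI (x axis, bars ± 1 SE, 3 rats per group), grouped by family. All points are white because 0 of the 66 genes tested passed an adjusted p under 0.05, and Unc5d was not tested.

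The 10 members with the smallest unadjusted p all had higher means in SCI + SCS, and all had been called lower in SCI against Sham. Both comparisons use the same SCI rats, so they are not independent. SCI values that are low by chance would make a gene both lower after injury and higher in SCI + SCS. Epha4 came first, at 13.0, 14.4 and 12.3 CPM in SCI and 18.2, 19.9 and 22.2 CPM in SCI + SCS (edgeR log2FC 0.61, SE 0.12, adjusted p = 0.0774). Slit1 was at 3.09, 4.57 and 3.55 CPM in SCI and 5.82, 7.49 and 10.2 CPM in SCI + SCS (log2FC 1.08, SE 0.26, adjusted p = 0.0904). For these 2 genes no SCI + SCS rat overlapped with an SCI rat, and DESeq2 gave adjusted p of 0.00078 for Epha4 and 0.0024 for Slit1. Robo2 was at 26.2 to 32.0 CPM in SCI and 34.9 to 40.8 CPM in SCI + SCS (log2FC 0.44, SE 0.11, adjusted p = 0.0931), and Plxnb1 at 46.7 to 53.6 CPM and 60.0 to 67.5 CPM (log2FC 0.38, SE 0.09, adjusted p = 0.0895). Sema7a was at 66.6, 82.9 and 55.2 CPM in SCI and at 91.9, 132 and 107 CPM in SCI + SCS (log2FC 0.71, SE 0.19, adjusted p = 0.1). Epha10 had the largest difference of the 10, at 1.08, 1.42 and 1.58 CPM in SCI and 1.98, 3.98 and 3.21 CPM in SCI + SCS (log2FC 1.18, SE 0.31, adjusted p = 0.1). Sema4f, Unc5c, Efna3 and Unc5a completed the 10, with log2FC of 0.47, 0.55, 1.08 and 1 and adjusted p from 0.1 to 0.111. The values of SCI and SCI + SCS did not overlap for any of the 10. Because they were picked by a small p, this separation adds no support, and 15.6% of all genes tested lay wholly higher.

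The 6 members with an unadjusted p under 0.05 and a lower mean in SCI + SCS were Sema3c, Efnb1, Nrp2, Plxnb2, Ephb4 and Epha8. Sema3c was at 65.3, 105 and 113 CPM in SCI and at 71.4, 40.8 and 48.2 CPM in SCI + SCS (edgeR log2FC -0.81, SE 0.27, adjusted p = 0.136). Efnb1 was at 50.6, 69.6 and 90.3 CPM in SCI and at 53.1, 35.6 and 37.3 CPM in SCI + SCS (log2FC -0.73, SE 0.24, adjusted p = 0.134). For both genes SCI + SCS rat 1 was the highest of its group and overlapped with SCI rat 1. The same rat had the highest pericyte and fibroblast markers of its group (3470 CPM, against 2050 and 2260 CPM). It was also the highest for Schwann cell markers (14500 CPM, against 6830 and 9870 CPM) and adipocyte markers (61.5 CPM, against 38.1 and 47.2 CPM). The match was therefore not particular to pericytes and fibroblasts. Nrp2 and Plxnb2 did not overlap between the groups, with log2FC of -0.34 (SE 0.10, adjusted p = 0.115) and -0.32 (SE 0.11, adjusted p = 0.139). Over the wider list of partners and effectors 0 of 57 passed the adjusted edgeR test. At an unadjusted p under 0.05, 17 were higher (29.8%, background 13.3%) and 4 lower (7.02%, background 10.9%). DESeq2 called 14 of the 57 higher (24.6%, background 8.83%) and 2 lower (3.51%, background 6.9%) at an adjusted p under 0.05. Among the markers, 0 of the 10 neuronal genes passed the adjusted edgeR test, although all 10 had a positive log2FC (median 1.03). All 7 astrocyte and all 7 oligodendrocyte genes were positive too (medians 0.44 and 0.42). The 7 pericyte and fibroblast, 5 T lymphocyte and 5 tested skeletal muscle genes all had a negative log2FC (medians -0.69, -1.79 and -7.67). DESeq2 called 4 of the 10 neuronal, 3 of the 7 astrocyte and 4 of the 7 oligodendrocyte genes higher. It called 4 of the 7 pericyte and fibroblast genes lower.

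Against the Sham rats, SCI + SCS rats had levels that were higher for 5 of 67 members (background 16.2%) and lower for 15 (background 16.2%). As DEGs, 3 were higher (background 6.28%) and 5 lower (background 5.44%), while DESeq2 called 10 higher (background 19.1%) and 18 lower (background 20.1%). The median log2FC was -0.20 over the members and 0.01 over all genes tested. This comparison shares its Sham rats with the one of SCI against Sham, so the calls of the 2 are not independent. Efna4 had the smallest adjusted p, at 0.595, 0.829 and 0.955 CPM in Sham and 3.14, 2.44 and 2.19 CPM in SCI + SCS (log2FC 1.71, SE 0.27, adjusted p = 0.00824). Plxnb2 stood at 217, 203 and 188 CPM in SCI + SCS against 52.7 to 105 CPM in Sham (log2FC 1.41, SE 0.24, adjusted p = 0.00944), and Plxnc1 at 26.1, 34.3 and 30.9 CPM against 9.63 to 17.1 CPM (log2FC 1.18, SE 0.22, adjusted p = 0.0124). These 3 were the DEGs that were higher, and no Sham rat reached any SCI + SCS rat in them. Nrp1 (log2FC 0.45, SE 0.12, adjusted p = 0.0354) and the larger row of Plxna1 (log2FC 0.39, SE 0.08, adjusted p = 0.0176) were the other members called higher. With the rows of Plxna1 summed, its log2FC was 0.08 (SE 0.09, adjusted p = 0.531).

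The 15 lower members included 3 Unc5 receptors, 4 membrane-bound semaphorins, the receptors Epha10, Epha5, Plxnb1 and Robo2, and Slit1, Efna2, Ntn4 and Sema3e. Unc5c was at 13.1, 15.4 and 15.3 CPM in SCI + SCS against 21.0 to 21.3 CPM in Sham (log2FC -0.53, SE 0.10, adjusted p = 0.0124). Sema6a was at 35.4, 42.3 and 38.1 CPM against 52.1 to 56.1 CPM (log2FC -0.47, SE 0.09, adjusted p = 0.0131), and Epha10 had the largest decrease (log2FC -1.62, SE 0.31, adjusted p = 0.0133). Slit1 was the only called member whose groups overlapped, because SCI + SCS rat 3 reached 10.2 CPM and Sham rat 3 stood at 9.80 CPM (log2FC -1.16, SE 0.35, adjusted p = 0.0466). The groups did not overlap for 14 members that were higher in SCI + SCS (background 27%) and 20 that were lower (background 26.2%). The calls of this comparison were fragile, since without Sham rat 2 there were 3 higher (background 6.58%) and 3 lower (background 5.41%), and without each SCI + SCS rat in turn 3 to 4 higher and 4 to 6 lower. Efna4, Plxnb2 and Plxnc1 kept their calls in all 6 fits without 1 library, and among the 15 lower members Sema6a alone did.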

How the data were processed

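Poly(A)-selected RNA from 9 spinal cord samples (3 Sham, 3 SCI and 3 SCI + SCS rats) was sequenced. Per the labels, the authors trimmed reads with fastp 0.23.2 and aligned them with HISAT2 2.2.1 to build mRatBN7.2, and the counting program is not given in the sources used here. The authors deposited raw counts per gene and FPKM values, which are counts scaled by length and library size. Rows sharing an identifier numbered 1081, and for a repeated symbol the row with the most counts was used.

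Genes were matched by symbol. The families, the gene lists and the rule for named genes were chosen with earlier results of these data known. That rule took a fixed set of well-known members. In SCI against Sham it added up to 3 called members per family and direction whose groups did not overlap. It also took the 10 smallest p in SCI + SCS against SCI and the 5 smallest adjusted p in SCI + SCS against Sham. Of the wider list it took the 3 largest changes per direction. The 6 members with lower means in SCI + SCS against SCI were named after their values were seen, as were further members named outside the rule to account for all 67.

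Each comparison used the 6 libraries of its groups in edgeR 4.0.16 under R 4.3.3 (TMM normalization, filterByExpr, quasi-likelihood F test, Benjamini-Hochberg adjustment over all genes tested), with a threshold of 0.05 and, for DEGs, a log2FC over 1 in size. SE was taken from the log2FC and the F statistic. CPM were TMM-normalized over the 9 libraries. Each library is 1 rat, and libraries of a group differed by far more than counting error. DESeq2 1.42.0 and limma 3.58.1 were alternatives, beside other filters and normalizations, summed rows, a fit of all 9 libraries, a replicate block and libraries left out. Tested on simulated data with 200 genes changed 4-fold, edgeR recovered 79% in SCI against Sham with 7 false calls, 87% in SCI + SCS against SCI with 10 and 86% in SCI + SCS against Sham with 19. DESeq2 recovered 90%, 93.5% and 93.5% with 90, 62 and 89 false calls. A 4-fold change is larger than that of any member tested in SCI + SCS against SCI. These recoveries therefore do not show how often smaller differences would be found. Of the marker lists, genes not matched by symbol were left out. Promoters came from RefSeq (GRCr8), and coordinates of genes from the deposited table.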

Additional observations from a re-analysis of the deposited data

How the results depend on the processing

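With SCI rats 1 and 3 left out together, added after the data were seen, the members higher and lower in SCI against Sham were 2 and 2 (DEGs 1 and 1), in a fit with 1 SCI library. On log2(FPKM + 1) with limma, 7 members were lower as DEGs in SCI against Sham. Without each library in turn, this comparison gave 9 to 12 members higher and 19 to 25 lower, and 5 to 8 and 12 to 16 as DEGs. In SCI + SCS against SCI, DESeq2 gave 13 higher and 4 lower (3 DEGs higher, 0 lower) and an unadjusted p gave 20 and 6 (6 past the fold size, higher), while every other alternative, each left-out library included, gave 0 and 0. In SCI + SCS against Sham, DESeq2 gave 10 higher, an unadjusted p 11 and log2(FPKM + 1) 8. The DEGs that were lower there numbered 1 on log2(FPKM + 1) and 3 on log2(FPKM + 0.1), against 5. Without each library in turn, 3 to 9 were higher and 3 to 19 lower, and 3 to 5 and 0 to 6 as DEGs. Causes were not tested. The replicate numbers name different rats, and the main fits did not pair libraries by them. Same-numbered deviations correlated at 0.24, -0.06 and 0.2 in SCI against Sham. They correlated at -0.17, 0 and -0.2 in SCI + SCS against SCI and at -0.33, 0.02 and -0.31 in SCI + SCS against Sham. In SCI against Sham, replicates 1 and 3 correlated best with their own number. No replicate did so in the other comparisons. With so few libraries, a batch shared by number can be neither shown nor excluded. With the replicate number as a block, 16 were higher and 28 lower in SCI against Sham. The block gave 0 and 0 in SCI + SCS against SCI. In SCI + SCS against Sham it gave 1 and 1 (DEGs 1 and 1). For the block, limma and most left-out fits the share of all genes called is not given. Their counts therefore do not show whether guidance genes moved apart from other genes. Over 200 values of single members and 3319 alternative values, 175 lost a call, 86 gained one and 0 called values reversed, while 72 values called in neither fit changed sign. The FPKM implied a length of Sema4b that varied up to 1.62 times among libraries.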
